A study of Mus musculus with 12 samples.

Results

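Cathepsins are the proteases of the lysosome, and 8 mouse cathepsin genes are described here in hearts that lack or carry the DNA exonuclease Trex1 and the innate immune adaptor STING: Ctsa, Ctsb, Ctsc, Ctsd, Ctsh, Ctsk, Ctsl and Ctsz. They were chosen as the probes whose symbol in the platform annotation is one of these names, which gave 17 of the 45281 probes on the array. Of these, 16 probes were detected on at least 2 of the 12 arrays, and together they measure all 8 genes. Cathepsin S, Ctss, is not a member and is given only where it serves as a yardstick.

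Heart RNA was measured on Illumina bead arrays in 6 genotypes with 2 arrays each: Trex-/- STING-/-, Trex+/+ STING-/-, Trex-/- STING+/-, Trex+/+ STING+/-, Trex-/- STING+/+ and Trex+/+ STING+/+. All mice were of mixed C57BL6/129Sv strain and untreated, and the labels give neither the nature of the alleles nor age nor sex. The title, the source and the genotype field agree on each sample's group, while the free description names another STING genotype for 7 of the 12 samples. Whether both samples of a group are from different animals is left unsaid in the labels. Xist was well detected on 4 arrays and the Y-linked Eif2s3y on the other 8, so the arrays do not all come from 1 sex, and the 2 arrays of Trex-/- STING+/+ and of Trex+/+ STING-/- differ in it. Every p-value therefore measures the spread between these samples, part of which may be technical.

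Most cathepsins are cysteine proteases of the papain family, made as inactive proenzymes, sorted to the lysosome by mannose 6-phosphate receptors and activated there at acid pH. Cathepsin D is an aspartic protease and cathepsin A a serine carboxypeptidase. Macrophages and other antigen-presenting cells are rich in them and use them to degrade engulfed protein and to trim the invariant chain and peptides for MHC class II, while Trex1 degrades cytosolic DNA that would otherwise activate cGAS, STING and type I interferon.

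In the data set as a whole, 38.3% to 44.7% of probes were detected per array and the median signal was 80 to 90.3. The Sting1 probe read 4.72 to 5.02 on the log2 scale in Trex-/- STING-/- hearts and 4.67 to 4.82 in Trex+/+ STING-/- hearts, against 6.94 to 7.03 in Trex-/- STING+/+ hearts and 5.15 to 5.71 in Trex+/+ STING+/+ hearts. Trex1 had 2 probes, whose positions relative to the deleted part are not given. On ILMN_3131766 it read 5.38 to 5.68 on 5 of the 6 Trex-/- arrays and 6.76 on Trex-/- STING+/+ replicate 2, against 6.53 to 7.34 on the 6 Trex+/+ arrays. On ILMN_2509737 it read 6.79 to 7.30 on the same 5 Trex-/- arrays and 7.84 on Trex-/- STING+/+ replicate 2, against 7.37 to 8.16 on the Trex+/+ arrays. The array labelled Trex-/- STING+/+ replicate 2 thus read in the Trex+/+ range on both probes, against its label. Its name below is its label's. Where a difference of the 8 cathepsins was called and rests on this array, the difference is given also without it. The same array stood apart on probe ILMN_2615855 of the splicing factor Hnrnpa2b1, at 5.91, with Trex+/+ STING+/- replicate 1 at 8.47, against 10.91 to 11.63 on the other 10. The second Hnrnpa2b1 probe, ILMN_2771074, was not low on those 2 arrays, at 7.30 and 8.37, against 7.28 to 8.28 on the other 10, and low Hnrnpa2b1 below means the first probe. The interferon-stimulated genes Isg15 and Irf7 were higher in Trex-/- STING+/+ than in Trex+/+ STING+/+ hearts by 5.81 and 6.03 on the log2 scale. Isg15 read 13.78 on Trex-/- STING+/+ replicate 1 and 12.36 on replicate 2, against 6.89 and 7.64 in Trex+/+ STING+/+ hearts. Irf7 read 11.28 and 11.78, against 4.92 and 6.08. On these 2 genes replicate 2 thus stood with replicate 1, unlike on the Trex1 probes, and its genotype was not tested.

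RefSeq promoter windows of GRCm38.p6, 250 bases before to 50 after a transcript start, were found for 6 of the 8 genes at 7 starts, and 3 are printed here because their genes show the 3 patterns described below. Ctsz stands for the genes that were high in Trex-/- STING+/+ hearts, Ctsa for the gene whose probes disagreed, and Ctsd for the gene that was lowest in STING-/- hearts. Capitals mark GTCACGTG, the core of the lysosomal CLEAR element, on either strand.
Ctsz, chr2:174438990-174439289, minus strand: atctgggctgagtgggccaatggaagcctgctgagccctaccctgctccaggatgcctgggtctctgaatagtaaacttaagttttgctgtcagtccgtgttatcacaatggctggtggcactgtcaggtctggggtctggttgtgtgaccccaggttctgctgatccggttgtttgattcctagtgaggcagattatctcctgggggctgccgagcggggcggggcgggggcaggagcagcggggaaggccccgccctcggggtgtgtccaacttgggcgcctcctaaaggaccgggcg
Ctsa, second start, chr2:164833523-164833822, plus strand: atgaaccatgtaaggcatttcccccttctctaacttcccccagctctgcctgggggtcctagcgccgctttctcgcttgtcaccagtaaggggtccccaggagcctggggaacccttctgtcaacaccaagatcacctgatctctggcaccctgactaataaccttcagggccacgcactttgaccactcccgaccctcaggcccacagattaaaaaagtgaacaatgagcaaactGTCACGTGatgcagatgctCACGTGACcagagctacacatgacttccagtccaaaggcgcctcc
Ctsd, chr7:142387778-142388077, minus strand: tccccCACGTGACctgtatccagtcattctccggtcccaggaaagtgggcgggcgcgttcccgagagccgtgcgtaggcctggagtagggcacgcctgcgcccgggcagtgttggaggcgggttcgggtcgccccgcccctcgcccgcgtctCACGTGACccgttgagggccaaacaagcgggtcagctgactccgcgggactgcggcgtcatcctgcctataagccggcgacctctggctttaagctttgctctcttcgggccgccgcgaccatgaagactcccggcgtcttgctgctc

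Searched on both strands, GTCACGTG was present 2 times at the second Ctsa start and 2 times at Ctsd, and in 2.25% of all 32851 promoter windows. Its inner E-box CACGTG, which overlaps it wherever it occurs, was also found once at Ctsl and is present in 7.15% of windows. The interferon response core, TTTC and TTTC parted by 2 bases, in 3.44% of windows, was found at none of the 7 starts. The STAT-type motif TTCNNNGAA, in 8.3% of windows, and the PU.1-type motif GAGGAAGT, in 3.2%, were each found once, both at Ctsc, where they read TTCCTTGAA and ACTTCCTC. Neither the Ctsz nor the Ctsk window held any of these 5 motifs. These are letter matches in windows of 300 bases and not binding sites.

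The first question was what loss of Trex1 did to the cathepsins when STING was intact. Ctsz and Ctsh rose 8.92-fold and 7.91-fold, Ctsa and Ctsb rose 2.04-fold and 1.62-fold, and the other 4 genes did not pass the test, an adjusted p under 0.05 in limma with Benjamini-Hochberg adjustment over 15561 features. Thus 4 of 8 cathepsins were higher and 0 lower, where 11.8% of all features were higher and 9.93% lower. The median difference over the 8 genes was 0.90 on the log2 scale, against -0.04 over all features. In whole heart RNA, more cells of a type and more RNA per cell cannot be told apart. Both Trex+/+ STING+/+ arrays and Trex-/- STING+/+ replicate 2 were Xist arrays, and with the sex class as a covariate the differences were 3.40 for Ctsz, 2.87 for Ctsh, 1.02 for Ctsa and 0.54 for Ctsb, the last no longer past the threshold. Without the array labelled Trex-/- STING+/+ replicate 2, the differences of Ctsz and Ctsh were 2.57 (limma adjusted p 0.000453) and 2.72 (limma adjusted p 0.00638), while those of Ctsa and Ctsb were 0.87 (limma adjusted p 0.102) and 0.78 (limma adjusted p 0.064) and no longer passed.

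**Figure D1:**
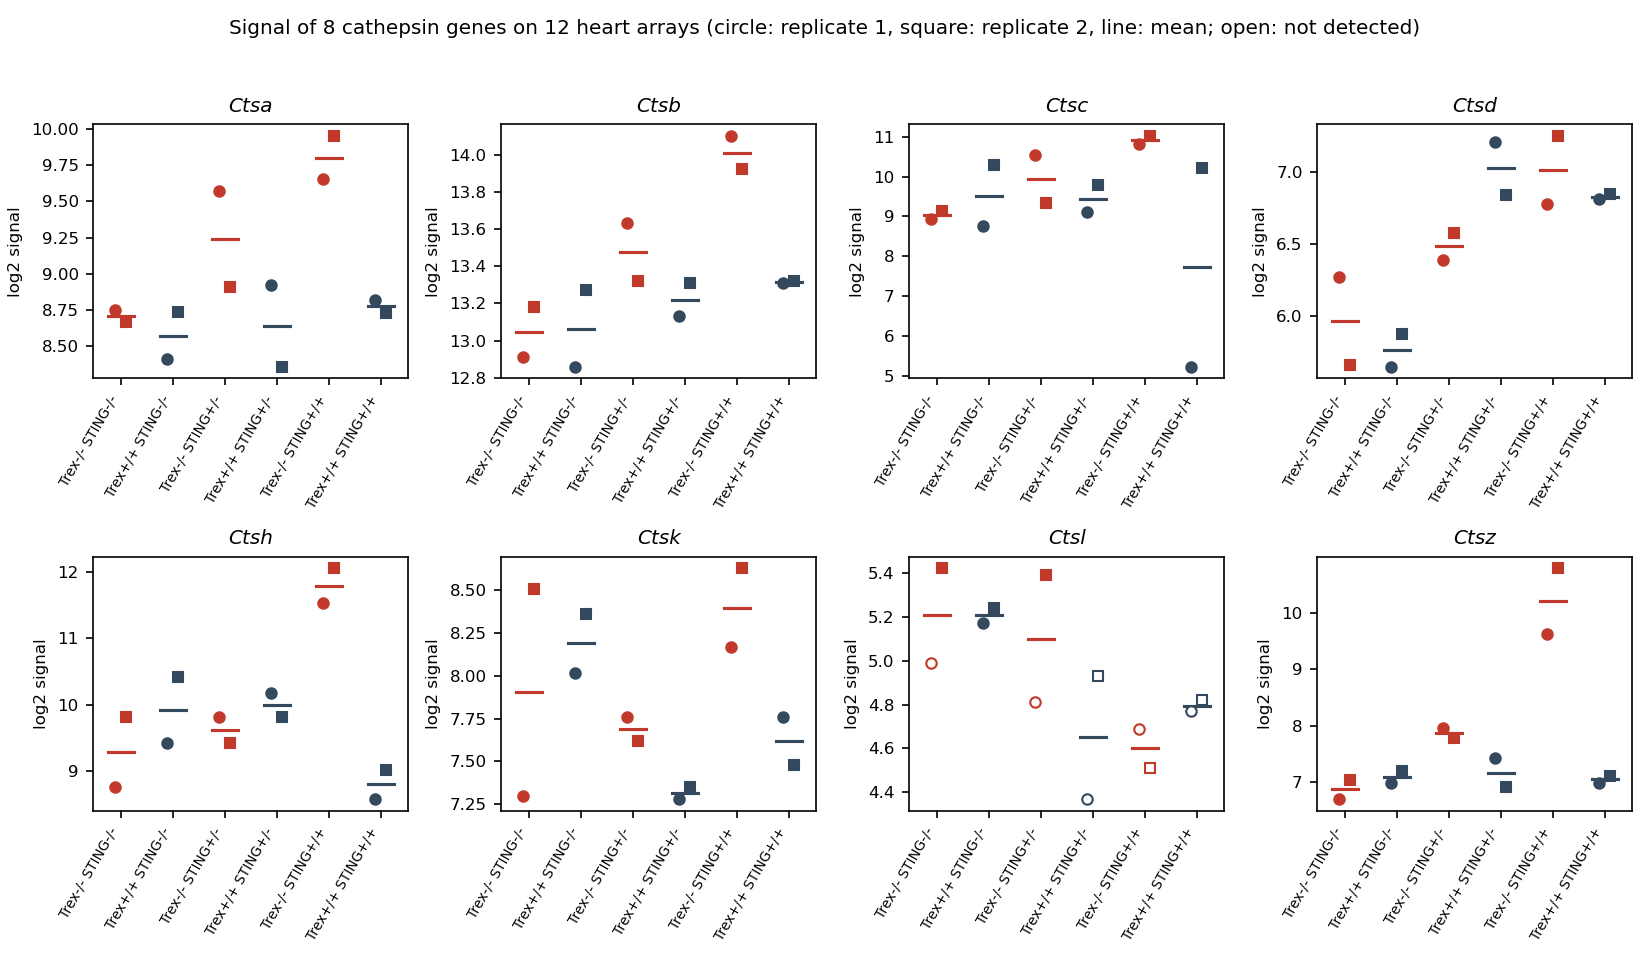
Log2 signal of the 8 cathepsin genes (vertical axes, 1 panel a gene, each with its own range) on 12 heart arrays of 6 genotypes; circles are replicate 1, squares replicate 2, lines group means, and open symbols arrays where the probe was not detected. Ctsh and Ctsz stand highest on both Trex-/- STING+/+ arrays, Ctsc has 1 Trex+/+ STING+/+ array at 5.23, and Ctsd is lowest on the 4 STING-/- arrays.

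Ctsz, cathepsin Z, is a lysosomal carboxypeptidase that removes single residues from the end of a protein. On probe ILMN_2666007 its log2 signal was 9.62 and 10.79 in Trex-/- STING+/+ hearts, against 6.99 and 7.11 in Trex+/+ STING+/+ hearts, from deposited signals of 1115.6 and 2087.9 against 191.7 and 187.2. Both Trex-/- STING+/+ arrays lay above all the other 10, and the groups did not overlap. The difference was 3.16 ± 0.34 (SE, n = 2 against 2), or 8.92-fold, with a limma adjusted p of 0.000198. On STING+/- the signal was 7.96 and 7.79 in Trex-/- hearts, against 7.43 and 6.91 in Trex+/+ hearts. On STING-/- it was 6.70 and 7.04 in Trex-/- hearts, against 6.98 and 7.19 in Trex+/+ hearts. The STING+/- arrays did not overlap either, but their difference of 0.71 (95% interval -0.06 to 1.47) missed the threshold, with an adjusted p of 0.471 in limma. Ordered by mean, Trex-/- STING+/+ stood 2.33 above Trex-/- STING+/-, which stood 0.71 above the next group, and the 4 lower groups followed each other in steps of 0.04 to 0.18, under the pooled SD of 0.39. The second Ctsz probe moved with the first (r = 0.99 over 12 arrays that share the genotypes) and gave a difference of 3.22.

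Ctsh, cathepsin H, is mainly an aminopeptidase. On probe ILMN_2872058 it read 11.52 and 12.05 in Trex-/- STING+/+ hearts, against 8.58 and 9.02 in Trex+/+ STING+/+ hearts. The first pair lay above every other array, and the second pair held 2 of the lowest 3 values of the 12. The difference was 2.98 ± 0.41, or 7.91-fold (limma adjusted p 0.000745), and the second probe gave 3.07. On the STING+/- background Ctsh read 9.81 and 9.42 in Trex-/- hearts, against 10.18 and 9.81 in Trex+/+ hearts, a difference of -0.38 (95% interval -1.30 to 0.53). On STING-/- the Trex-/- arrays read 8.76 and 9.82 and the Trex+/+ arrays 9.42 and 10.41. Below the top group, which led by 1.79, the other 5 group means lay from 8.80 to 10.00 in steps of at most 0.49, the size of the pooled SD.

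Ctsb, cathepsin B, is an endopeptidase that also trims dipeptides from protein ends and is abundant in most tissues. On probe ILMN_2683316 it was 14.10 and 13.92 in Trex-/- STING+/+ hearts, against 13.31 and 13.32 in Trex+/+ STING+/+ hearts. The groups did not overlap, and these were the 2 highest of 12 values. The difference of 0.69 ± 0.22, a 1.62-fold rise, was just past the threshold in limma, with an adjusted p of 0.0446. That call was lost in 15 of 22 alternative settings by limma, among them the covariate for sex (adjusted p 0.114) and leaving out either array of either group (0.60 to 0.78), while the direction held in all 22. On STING+/- Ctsb read 13.63 and 13.32 in Trex-/- hearts, against 13.13 and 13.31 in Trex+/+ hearts. On STING-/- it read 12.91 and 13.18 in Trex-/- hearts, against 12.86 and 13.27 in Trex+/+ hearts, so only the STING-/- pairs overlapped. A second Ctsb probe was detected on 0 arrays.

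Ctsa, cathepsin A, is a serine carboxypeptidase that also holds the lysosomal neuraminidase and beta-galactosidase in a stable complex. On the probe with the highest mean signal, ILMN_2669714, it read 9.65 and 9.95 in Trex-/- STING+/+ hearts, against 8.82 and 8.73 in Trex+/+ STING+/+ hearts. This probe rose by 1.03 ± 0.27, or 2.04-fold, with a limma adjusted p of 0.0232. It read 9.57 and 8.91 in Trex-/- STING+/- hearts, against 8.92 and 8.36 in Trex+/+ STING+/- hearts, and 8.75 and 8.67 in Trex-/- STING-/- hearts, against 8.41 and 8.74 in Trex+/+ STING-/- hearts. The STING+/- and the STING-/- pairs both overlapped, and 1 of the Trex-/- STING+/- arrays, at 9.57, lay just under the lower Trex-/- STING+/+ value. The call ended with array weights and in a fit of the compared arrays alone. Leaving out Trex+/+ STING+/+ replicate 1 or 2 or Trex-/- STING+/+ replicate 2 ended the call (0.87 to 1.07, adjusted p 0.0937 to 0.114 in limma).

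The probes of Ctsa gave different patterns. ILMN_1213617, detected on all 12 arrays, read 8.85 and 6.52 in Trex-/- STING+/+ hearts, against 8.25 and 8.23 in Trex+/+ STING+/+ hearts, a difference of -0.55 ± 0.60. Its lowest values were 6.52 on Trex-/- STING+/+ replicate 2 and 6.79 on Trex+/+ STING+/- replicate 1, the same 2 arrays on which Hnrnpa2b1 was low, and on the other 10 arrays it read 7.96 to 8.85. ILMN_3045359 was also lowest on those 2 arrays, at 4.64 and 4.73, and was not detected there. The other 2 Ctsa probes stayed between 4.54 and 5.38, near background. Which transcripts each probe reads is not given in the files.

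Ctsc, cathepsin C or dipeptidyl peptidase 1, activates the serine proteases of neutrophil, mast cell and cytotoxic lymphocyte granules. On probe ILMN_3008858 it read 10.83 and 11.02 in Trex-/- STING+/+ hearts, against 5.23 and 10.22 in Trex+/+ STING+/+ hearts. A single Trex+/+ STING+/+ array thus stood near background, with a deposited signal of 104.2 where the lowest of the other 11 was 483. The fitted difference was 3.20 ± 1.22 (95% interval 0.48 to 5.92, limma adjusted p 0.0895), and it was 0.71 without that array and 5.70 without the other one (adjusted p 0.00103 in limma), when its effect on STING+/+ minus that on STING-/- also passed (6.18). All 3 Ctsc probes shared the low reading, at 4.60 to 5.23 on that array, and 2 of them were not detected on it. On STING+/- Ctsc read 10.55 and 9.33 in Trex-/- hearts, against 9.10 and 9.79 in Trex+/+ hearts. On STING-/- it read 8.94 and 9.14 in Trex-/- hearts, against 8.75 and 10.29 in Trex+/+ hearts. Apart from the 1 low array, the values of the 6 genotypes spread over 8.75 to 11.02, and the 2 highest were those of Trex-/- STING+/+.

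**Figure D2:**
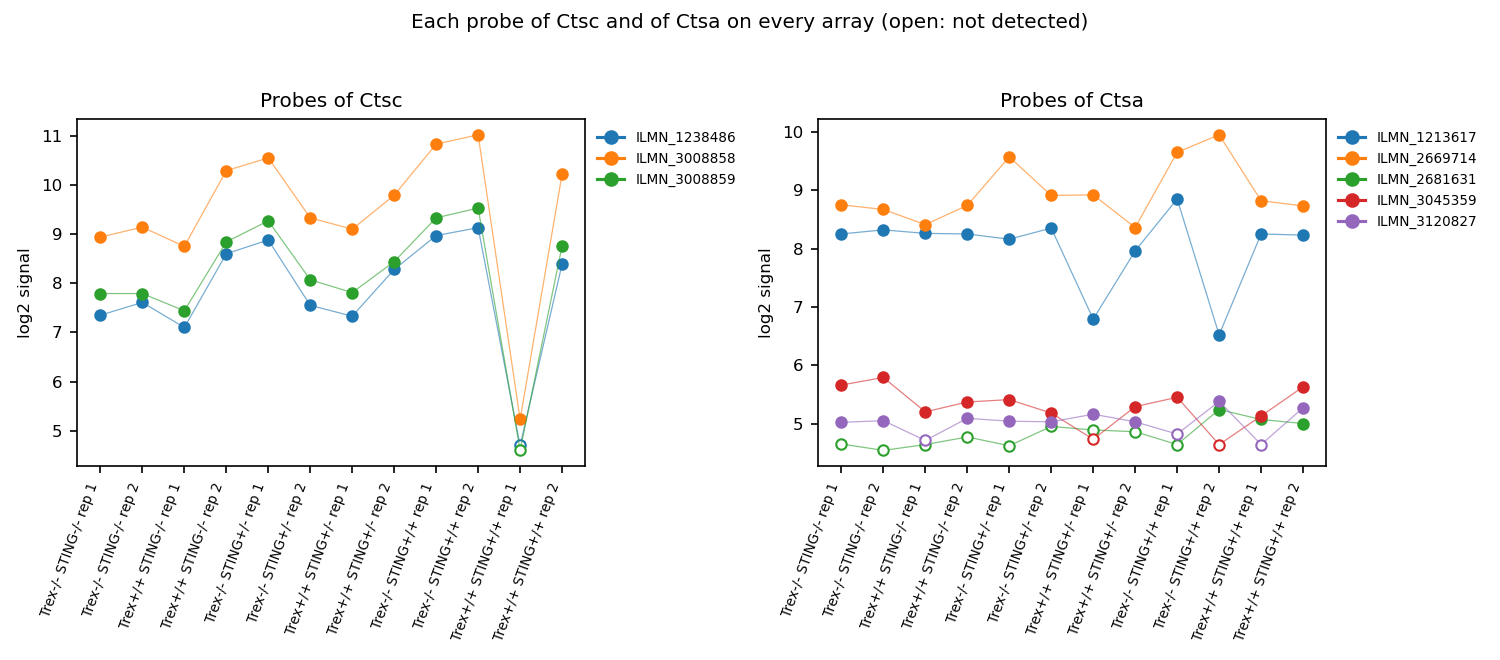
Log2 signal (vertical axis) of each probe of Ctsc, left, and of Ctsa, right, on the 12 arrays along the horizontal axis; open symbols are arrays where the probe was not detected. The 3 Ctsc probes fall together on Trex+/+ STING+/+ replicate 1, at 4.60 to 5.23, while the Ctsa probes ILMN_1213617 and ILMN_2669714 part on Trex-/- STING+/+ replicate 2, at 6.52 and 9.95.

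Ctsk, cathepsin K, is the collagen-cleaving protease best known from osteoclasts and is also made by fibroblasts and macrophages. On probe ILMN_2711163 it read 8.17 and 8.63 in Trex-/- STING+/+ hearts, against 7.76 and 7.48 in Trex+/+ STING+/+ hearts, a difference of 0.78 ± 0.35 that did not pass the test (95% interval 0.01 to 1.55, limma adjusted p 0.139). It passed when either Trex-/- STING-/- array was left out, at the same 0.78 (limma adjusted p 0.0451), since these 2 arrays, at 7.30 and 8.51, add to the pooled spread. The Trex+/+ STING-/- hearts read 8.02 and 8.36. On STING+/- it read 7.76 and 7.62 in Trex-/- hearts and 7.28 and 7.35 in Trex+/+ hearts. No step between neighbouring group means, at most 0.31, exceeded the pooled SD of 0.40.

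Ctsl, cathepsin L, is an endopeptidase of most tissues. Its probe ILMN_2904703 was near background, between 4.37 and 5.42, and was detected on 4 arrays: Trex-/- STING-/- replicate 2, both Trex+/+ STING-/- arrays and Trex-/- STING+/- replicate 2. It passed the filter only through those arrays. They are also the arrays with the highest mean signal over 10 atrial marker genes, 9.35 to 12.21, against 7.39 to 8.00 on the other 8, and how far the share of atrial tissue bears on Ctsl was not tested. In neither Trex-/- STING+/+ nor Trex+/+ STING+/+ hearts was it detected, so no fold is given there.

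Ctsd, cathepsin D, is the main aspartic protease of the lysosome. On probe ILMN_2987685 it read 6.78 and 7.25 in Trex-/- STING+/+ hearts, against 6.81 and 6.85 in Trex+/+ STING+/+ hearts, with a difference of 0.19 (95% interval -0.39 to 0.77). On STING+/- it read 6.39 and 6.58 in Trex-/- hearts, against 7.21 and 6.84 in Trex+/+ hearts. On STING-/- it read 6.27 and 5.66 in Trex-/- hearts, against 5.65 and 5.88 in Trex+/+ hearts. The 4 lowest of the 12 values were thus those of the STING-/- arrays, whatever the Trex1 genotype, and the 2 highest, 7.25 and 7.21, were those of the 2 arrays with low Hnrnpa2b1. The probe was detected on all 12 arrays but was dim. Deposited signals on the STING-/- arrays were 108.3 to 129.7, where the median signal per array was 80 to 90.3. Of the 4 STING-/- arrays 3 are among those with high atrial markers, and the fourth, Trex-/- STING-/- replicate 1 at 6.27, is not. The part of atrial tissue in the Ctsd values was not tested.

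The second question was whether the effect of Trex1 loss depended on STING. On STING+/-, 0 of 8 cathepsins passed in limma (0 at an unadjusted p under 0.05), where 1.14% of features were higher and 0.129% lower, and the differences ran from -0.54 to 0.71. On STING-/-, 0 of 8 passed (0 at an unadjusted p under 0.05), where 0% of features were higher and 0.0129% lower, and the differences ran from -0.63 to 0.20. The differences between the effects were tested directly. For the effect on STING+/+ minus that on STING-/-, 2 of 8 cathepsins passed, Ctsh at 3.61 ± 0.58 (limma adjusted p 0.00458) and Ctsz at 3.37 ± 0.49 (limma adjusted p 0.00284), where 6.4% of features were higher and 3.47% lower. Without the array labelled Trex-/- STING+/+ replicate 2 they were 3.35 (limma adjusted p 0.0136) and 2.79 (limma adjusted p 0.00251). The same difference was 0.71 (95% interval 0.04 to 1.39) for Ctsb and 0.90 (0.04 to 1.75) for Ctsa, with adjusted p of 0.18 and 0.184 in limma. On the Ctsa probes ILMN_1213617 and ILMN_3045359 the sign was opposite, at -0.58 ± 0.86 and -0.78 ± 0.43.

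For the effect on STING+/+ minus that on STING+/-, the same 2 genes passed, where 1.39% of features were higher and 0.527% lower. Ctsh stood at 3.37 ± 0.58 (limma adjusted p 0.0251) and Ctsz at 2.45 ± 0.49 (limma adjusted p 0.037). Both calls were sensitive: Ctsh lost its call in 9 of 22 alternative settings and Ctsz in 15, with values of 2.92 to 3.63 and 1.61 to 3.04. Without that array Ctsh was 3.11 (limma adjusted p 0.0534), no longer past the threshold, and Ctsz 1.87 (limma adjusted p 0.0388). The effect on STING+/- minus that on STING-/- passed for 0 of 8 cathepsins in limma (0 at an unadjusted p under 0.05), where 0.244% of features were higher and 0.0129% lower. By comparison, Isg15 and Irf7 were higher in Trex-/- than in Trex+/+ hearts on STING+/- too, by 4.92 and 4.44 (limma adjusted p 0.00125 and 0.00193). These comparisons share arrays, so each is given by its own values.

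**Figure D3:**
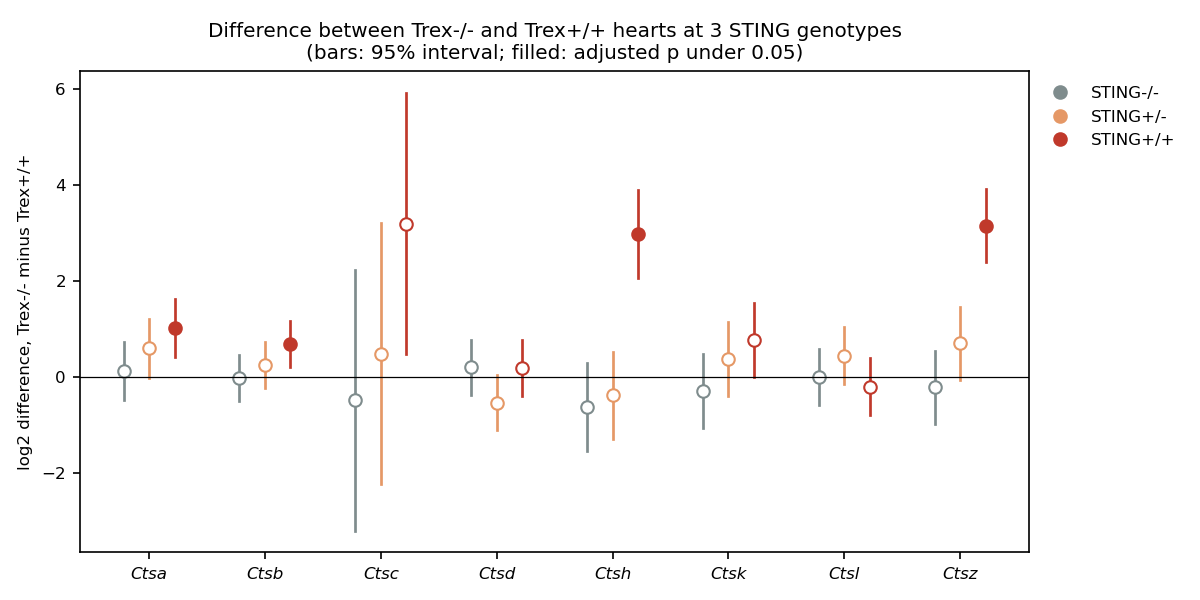
Log2 difference between Trex-/- and Trex+/+ hearts (vertical axis) for the 8 cathepsins on STING-/-, STING+/- and STING+/+, with 95% intervals as bars; filled points passed an adjusted p of 0.05. Ctsh and Ctsz reach 2.98 and 3.16 on STING+/+ and lie between -0.63 and 0.71 on the other backgrounds, and the intervals of Ctsc are the widest.

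The third question was what loss of STING did in hearts that lacked Trex1. In Trex-/- STING-/- hearts 5 of 8 cathepsins were lower than in Trex-/- STING+/+ hearts and 0 higher, where 12.7% of features were lower and 11.3% higher, and the median over the 8 genes was -1.07, against 0.03 over all features. Ctsz fell by 3.33 ± 0.34 (limma adjusted p 0.000136) and Ctsh fell by 2.49 ± 0.41 (limma adjusted p 0.002). Their 2 Trex-/- STING-/- arrays read at most 7.04 for Ctsz and at most 9.82 for Ctsh, below every Trex-/- STING+/+ array. Without Trex-/- STING+/+ replicate 2 they passed at -2.75 (limma adjusted p 0.000307) and -2.23 (limma adjusted p 0.0152). Ctsa fell by 1.09 ± 0.27 (limma adjusted p 0.0169), Ctsb fell by 0.96 ± 0.22 (limma adjusted p 0.0102) and Ctsd fell by 1.05 ± 0.26 (limma adjusted p 0.0155). Each of these 3 calls was lost without 1 array or more: Ctsa without Trex-/- STING+/+ replicate 2 (-0.94) or either Trex-/- STING-/- array (-1.13 and -1.05), Ctsb without Trex-/- STING-/- replicate 1 (-0.83) but not without Trex-/- STING+/+ replicate 2 (-1.05), and Ctsd without Trex-/- STING+/+ replicate 2 (-0.82) or Trex-/- STING-/- replicate 2 (-0.75). All 3 were also lost with array weights and in a fit of the compared arrays alone, and Ctsd with sex as a covariate (-0.99). On the other Ctsa probe, ILMN_1213617, the sign was opposite, at 0.60 ± 0.60. Ctsc differed by -1.88 ± 1.22 and Ctsk by -0.50 ± 0.35 and neither passed, but Ctsc passed without either Trex+/+ STING+/+ array, which takes no part in the difference and only widens its error (adjusted p 0.0347 in limma). Ctsk was 0.11 without Trex-/- STING-/- replicate 1 and -1.10 without replicate 2, where it passed (limma adjusted p 0.0327), with Trex-/- STING-/- replicate 1 at 7.30 and replicate 2 at 8.51.

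Ctsz and Ctsh were also lower in Trex-/- hearts with a single STING allele than in those with both. In Trex-/- STING+/- hearts, 2 of 8 cathepsins were lower than in Trex-/- STING+/+ hearts, where 6.75% of features were lower and 4.25% higher. They were Ctsz, which fell by 2.33 ± 0.34 (limma adjusted p 0.00376), and Ctsh, which fell by 2.17 ± 0.41 (limma adjusted p 0.0104). Without Trex-/- STING+/+ replicate 2 or Trex-/- STING+/- replicate 2 the Ctsh call was lost (-1.91 and -1.98), while Ctsz without the first was -1.75 (limma adjusted p 0.00912), and both were lost in a fit of the compared arrays alone. Between Trex-/- STING-/- and Trex-/- STING+/- hearts, 0 of 8 passed in limma (1 at an unadjusted p under 0.05), where 1.21% of features were lower and 0.141% higher. Ctsz differed by -1.0 ± 0.34 there (95% interval -1.77 to -0.23, limma adjusted p 0.293) with no overlap of arrays.

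In hearts with intact Trex1, loss of STING moved no cathepsin past the threshold. Between Trex+/+ STING-/- and Trex+/+ STING+/+ hearts 0 of 8 passed in limma (2 at an unadjusted p under 0.05), where 0.0386% of features were higher and 0.0193% lower. Ctsd differed by -1.06 ± 0.26 (limma adjusted p 0.252), nearly the same as its called difference of -1.05 between the Trex-/- groups, and Ctsh by 1.12 ± 0.41 (limma adjusted p 0.413). Between Trex+/+ STING+/- and Trex+/+ STING+/+ hearts 0 of 8 passed (1 at an unadjusted p under 0.05), where 0.0129% of features were higher and 0% lower, and Ctsh differed by 1.20 ± 0.41 (limma adjusted p 0.999). The 2 Ctsh values of Trex+/+ STING+/+, 8.58 and 9.02, were thus below those of both other Trex+/+ groups, which began at 9.42.

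Genes that work with the cathepsins were described from lists of their partners. Of the 5 measured among 15 other cathepsins, 3 were higher and 1 lower in Trex-/- STING+/+ than in Trex+/+ STING+/+ hearts. Over all features, 11.8% were higher and 9.93% lower. Ctss, a protease of antigen-presenting cells, was higher by 4.67 ± 0.37, or 25.5-fold (limma adjusted p 3.93e-05), a difference larger in size than that of any of the 8. Ctsw, a cathepsin of cytotoxic lymphocytes, read 7.81 and 8.83 in Trex-/- STING+/+ hearts and was detected on 0 Trex+/+ STING+/+ arrays, so it was at least 9.96-fold higher. Here a gene not detected in a group is set at the higher of its own signal and the lowest detected signal of each array. Ctsw was detected only in Trex-/- STING+/+ and Trex-/- STING+/- hearts, and passed the detection filter through them. Ctsf, a broadly expressed cysteine cathepsin, went the other way, with 6.23 and 6.46 in Trex-/- STING+/+ hearts, against 7.86 and 7.89 in Trex+/+ STING+/+ hearts (-1.53 ± 0.24, limma adjusted p 0.00162). Ctso was on the array and did not pass the detection filter.

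Lists of partner genes were compared between the same Trex-/- STING+/+ and Trex+/+ STING+/+ hearts, where 11.8% of all features were higher and 9.93% lower. Of 8 cathepsin inhibitors measured among 21 listed, 4 were higher and 0 lower. Among those 4, Csta2 and Cst7 were each detected on only 3 of the 12 arrays. The detection filter may thus favour this count of higher genes. Cstb, cystatin B, which binds cysteine cathepsins in the cytosol, was 12.68 and 13.30 in Trex-/- STING+/+ hearts, against 11.00 and 11.03 in Trex+/+ STING+/+ hearts (1.97 ± 0.25, limma adjusted p 0.00051). Cst7, cystatin F of immune cells, was detected on 0 Trex+/+ STING+/+ arrays and was at least 2-fold higher (limma adjusted p 0.00547). It passed the detection filter only because it was detected in Trex-/- STING+/+ hearts. The secreted inhibitor Cst3, cystatin C, differed by 0.52 and did not pass (limma adjusted p 0.0836), but passed at the same 0.52 under 4 alternatives (limma adjusted p 0.0279 to 0.0481). Among 7 activating enzymes and partners, 3 were higher and 0 lower. Cd74, the invariant chain that cathepsins cleave, rose by 4.07 ± 0.49 (limma adjusted p 0.00036), whereas Lgmn, the protease legumain, differed by 1.08 ± 0.37 (limma adjusted p 0.0625), Neu1 by 0.44, Glb1 by 0.42 and Psap by -0.24. Lgmn read 11.74 on Trex-/- STING+/+ replicate 1 and 10.44 on replicate 2, and without the second its difference was 1.73 (adjusted p 0.00293 in limma). Of 5 measured among 11 granule serine proteases that Ctsc activates, 1 was higher and 2 lower, and without Trex+/+ STING+/+ replicate 1 none of the 5 passed in limma. The higher one, Gzmk, was detected on only 4 arrays, so the filter may favour its call. Gzmb did not pass the detection filter, and Gzma was not analysed here.

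Other lysosomal genes were described in 4 lists for the same 2 groups of hearts, where 11.8% of all features were higher and 9.93% lower. The counts of sorting genes, and of lower genes among the other lysosomal enzymes, lay near those shares. Of 22 measured among 27 other lysosomal enzymes, 6 were higher and 2 lower, with a median of 0.43, and without Trex+/+ STING+/+ replicate 1 the 8 calls became 4. Of 15 measured membrane and proton pump genes, 4 were higher and 0 lower, with a median of 0.31, and Lamp1, a main glycoprotein of the lysosomal membrane, differed by 0.31 (limma adjusted p 0.251). Of 10 sorting genes, 2 were higher and 1 lower, a count of 3 that became 0 without either Trex+/+ STING+/+ array, 5 without Trex-/- STING+/+ replicate 1 and 1 without its replicate 2. M6pr, a receptor that carries cathepsins to the lysosome, rose by 1.05 ± 0.24 (limma adjusted p 0.0114), though without either Trex+/+ STING+/+ array it was 1.00 and 1.11 and did not pass. The larger receptor Igf2r differed by -0.64 (limma adjusted p 0.182), and passed at -1.02 without Trex-/- STING+/+ replicate 1 (limma adjusted p 0.0451). Of 5 measured transcription regulators 0 passed in limma (4 at an unadjusted p under 0.05), and Tfeb, the main activator of CLEAR elements, differed by -0.58 (limma adjusted p 0.0913).

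**Figure D4:**
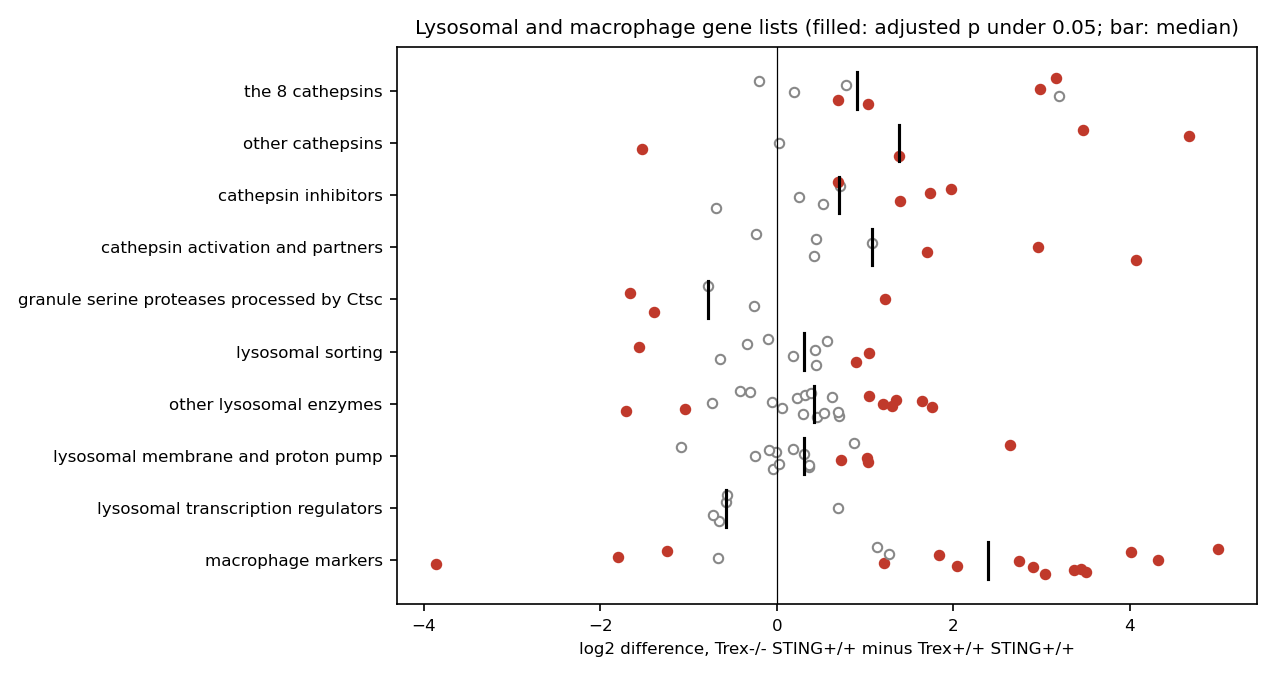
Log2 difference between Trex-/- STING+/+ and Trex+/+ STING+/+ hearts (horizontal axis) for each measured gene of 10 lists; filled points passed an adjusted p of 0.05 and bars are list medians. The 8 cathepsins have a median of 0.90, between other lysosomal enzymes at 0.43 and macrophage markers at 2.39.

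Markers of macrophages were, like Ctsz and Ctsh, mostly higher in Trex-/- STING+/+ hearts. In Trex-/- STING+/+ against Trex+/+ STING+/+ hearts, 11.8% of all features were higher and 9.93% lower. Of 18 measured macrophage markers among 21, 12 were higher and 3 lower there, with a median of 2.39. Their summed linear signal was 59800 to 60900 in Trex-/- STING+/+ hearts, against 11800 to 15200 in Trex+/+ STING+/+ hearts, 27500 to 33800 in Trex-/- STING+/- hearts, against 11800 to 13500 in Trex+/+ STING+/- hearts, and 11500 to 20200 in Trex-/- STING-/- hearts, against 9230 to 21300 in Trex+/+ STING-/- hearts. On STING+/- the sum was thus higher in both Trex-/- hearts than in both Trex+/+ hearts. By the limma test on STING+/-, 2 of 18 macrophage markers were higher and 0 lower, with a median of 1.29. There 0 of 8 cathepsins passed, with a median of 0.41. Over all features on STING+/-, 1.14% were higher and 0.129% lower, with a median of -0.05. On STING+/+ Csf1r, the growth factor receptor of macrophages, rose by 1.22 (limma adjusted p 0.0282). That call was lost without either Trex+/+ STING+/+ array (1.04 and 1.39) or either Trex-/- STING+/+ array (1.21 and 1.22). Cd163, which marks resident tissue macrophages, was detected on 0 Trex-/- STING+/+ arrays and was at least 10.8-fold lower (limma adjusted p 0.0102), without Trex+/+ STING+/+ replicate 2 no longer past the threshold (-3.30). The lysozyme gene Lyz2 differed by 1.27 and did not pass (limma adjusted p 0.0947), but passed at 1.93 without Trex-/- STING+/+ replicate 2 (limma adjusted p 0.0299) and at 2.04 on its probe of largest variance (limma adjusted p 0.00823), and Cd68 was not analysed here. Ccr2 and Itgam were detected on 1 array each and did not pass the filter. The part of macrophage number in the cathepsin values was not tested.

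Other cell types moved as well between these hearts, where 11.8% of all features were higher and 9.93% lower on STING+/+. All 6 measured T and NK cell markers were higher, with a summed signal of 2830 to 3920 in Trex-/- STING+/+ hearts, against 159 to 161 in Trex+/+ STING+/+ hearts, while Cd4, Cd8a, Gzmb and Ncr1 were detected on 0 arrays. All 6 were detected on both Trex-/- STING+/+ arrays, but only 1 and 2 of them on the Trex+/+ STING+/+ arrays. Cd3d and Cd3e were detected on 4 arrays and Klrk1 on 3. Some of the 6 thus passed the detection filter only through arrays where they were high, which favours a count of higher genes. Of 4 measured neutrophil markers 2 were higher, Ltf and Csf3r. The other 2, S100a8 and S100a9, differed by 0.29 and 0.19 and did not pass (limma adjusted p 0.736 and 0.836). The summed signal of the 4 was 303 to 469 in Trex-/- STING+/+ hearts, against 212 to 279 in Trex+/+ STING+/+ hearts. Camp, Ngp, Cxcr2 and Mpo were detected on 0 arrays. Ltf was detected only on the 2 Trex-/- STING+/+ arrays and passed the detection filter through them, so its call as higher was favoured by the filter. Of 10 measured fibroblast markers 1 was higher and 3 lower, among them Pdgfra at -1.20 (limma adjusted p 0.00786). The 4 fibroblast calls became 0 without Trex+/+ STING+/+ replicate 1, 2 without its replicate 2 and 1 without Trex-/- STING+/+ replicate 2, and Pdgfra was lost without the first (-1.0, limma adjusted p 0.0782), with array weights (limma adjusted p 0.0524) and with only the arrays compared (limma adjusted p 0.0519). Col1a1, at 0.74, was not past the threshold (limma adjusted p 0.175). Of 9 cardiomyocyte markers 0 were higher and 5 lower, with a mean log2 signal of 12.95 to 13.18 in Trex-/- STING+/+ hearts, against 13.99 to 14.07 in Trex+/+ STING+/+ hearts, so heart muscle transcripts were abundant on all arrays. How far these lists bear on the cathepsins was not tested.

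The few features nearest in pattern to each gene over the 12 arrays were not the same from one cathepsin to the next. By Pearson correlation, given as a description because the arrays share genotypes, Rab8a (0.994), Capg (0.994) and Map4k1 (0.992) were nearest to Ctsz. For Ctsa they were Clec4a1 (0.981), Tcirg1 (0.972) and Prkcd (0.972), and for Ctsb Taok3 (0.973), Gpx8 (0.962) and Gosr2 (0.959). Nearest to Ctsh were Med11 (0.932), S100a4 (0.931) and Dram1 (0.929), to Ctsc Rmdn3 (0.919), Zfp930 (0.877) and Eif4e (0.869), to Ctsk Gltp (0.957), Gng2 (0.952) and Plvap (0.943), and to Ctsd Prep (0.986), Map3k7 (0.970) and Zdhhc9 (0.960). No feature is named as near to more than 1 cathepsin. These short lists do not measure how alike the cathepsins themselves were. Between cathepsins, the correlation was 0.86 for Ctsa and Ctsb, 0.9 for Ctsa and Ctsz, and 0.86 for Ctsb and Ctsz. It was 0.87 for Ctsh and Ctsz, and every other pair lay between -0.81 and 0.75. With Ctss it was 0.93 for Ctsa, 0.94 for Ctsb, 0.96 for Ctsz and 0.83 for Ctsh, and -0.44 to 0.57 for the others.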

How the data were processed

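Per the labels' protocols, heart RNA was extracted with an RNeasy kit and labelled as biotinylated cRNA. Intensity values came from the authors' deposited non-normalized table of 45281 probes and 12 arrays. Each deposited intensity has a detection score, which grew with brightness (rank correlation 0.979 to 0.988), so that 1 minus the score was taken as its detection p-value. The authors' deposited processed log2 values are quantile-normalized and centred per probe (largest difference 0.00513 over 7004 bright probes) and were an alternative. Scanner software was not given in the sources used here. The number of arrays limits the precision.

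In R 4.3.3 with limma 3.58.1, signals were corrected and normalized with neqc (offset 16), and 22810 probes were kept, those reaching detection p 0.05 on 2 arrays or more. Symbols came from the platform annotation (34885 probes with 1 symbol, 18 with several, 10378 with none), updated by Entrez ID. The brightest probe stood for a gene, which gave 15561 features. A mean per genotype was fitted (lmFit, eBayes) to the 12 arrays together, leaving 6 residual degrees of freedom, and 11 contrasts were taken. An adjusted p under 0.05 was the threshold. Intervals are 95%. The pipeline was tested on simulated data.

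The 8 genes, the named genes and the gene lists were chosen with earlier results of these data known. Named genes are the 8 members and a list of partners and markers, most of them named whatever their values. Hnrnpa2b1 is an exception, named for its low signal on some arrays. Further genes of the lists, such as Ltf and Gzmk, were named because of their test results or detection. Also named are the 3 features with 1 symbol most correlated with each cathepsin detected on all arrays. Alternatives were normalization, filter, variance prior, array weights, probe choice, sex, samples in the fit and leaving out arrays.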

Additional observations from a re-analysis of the deposited data

Results flagged for a closer look

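The Trex1 effect (Trex-/- minus Trex+/+) differed between STING genotypes by the fitted difference itself, on the log2 scale, for the genes given here. The effect on STING+/+ exceeded that on STING-/- by 3.61 for Ctsh, 3.37 for Ctsz, 4.47 for Ctss, 3.31 for Ctsw, 2.26 for Cstb, 3.82 for Cd74, 5.58 for Isg15 and 5.96 for Irf7, with limma adjusted p of 0.0011 to 0.00849. It was lower on STING+/+ than on STING-/- for Ctsf (-1.64, limma adjusted p 0.0148) and for Cd163 (-4.53, limma adjusted p 0.0439). The effect on STING+/+ exceeded that on STING+/- by 3.37 for Ctsh, 2.45 for Ctsz and 3.06 for Ctss (limma adjusted p 0.0251, 0.037 and 0.0239). The effect on STING+/- exceeded that on STING-/- by 4.70 for Isg15 (limma adjusted p 0.0308) and by 4.37 for Irf7 (limma adjusted p 0.0388). Ctsw and Cd163 were not detected in a group that enters these differences, so the fitted sizes are no bounds. No explanation was weighed.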

How the results depend on the processing

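Over the 8 cathepsins and 11 contrasts, 15 of 88 differences passed. Under 10 alternatives and 12 fits without 1 array, 328 of 330 values of called differences kept their direction and 262 stayed past the threshold; of 1595 values of the others, 43 turned sign and 11 passed. Ctsh and Ctsz passed in all 22 settings for Trex-/- against Trex+/+ on STING+/+ (2.72 to 3.25 and 2.57 to 3.74), for the effect on STING+/+ minus on STING-/- (3.09 to 4.14 and 2.79 to 3.96) and for Trex-/- STING-/- against Trex-/- STING+/+ (-3.02 to -1.97 and -3.92 to -2.75).

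Counts of cathepsins past the threshold moved as follows. On STING+/+ the 4 became 2 with array weights, the probe of largest variance, only the arrays compared, or without the 2 arrays with low Hnrnpa2b1, and 2 to 4 without 1 array. The 2 for the effect on STING+/+ minus on STING-/- were 2 to 3 without 1 array. The 2 for STING+/+ minus STING+/- became 0 with no filter or without the low Hnrnpa2b1 arrays, 1 with the strict filter, array weights, the probe of largest variance or only the arrays compared, and 0 to 2 without 1 array. The 5 for Trex-/- STING-/- against Trex-/- STING+/+ became 2 with array weights, 3 without the low Hnrnpa2b1 arrays or with only the arrays compared, and 3 to 6 without 1 array. The 2 for Trex-/- STING+/- against Trex-/- STING+/+ became 1 with array weights or without the low Hnrnpa2b1 arrays, 0 with only the arrays compared, and 1 to 2 without 1 array. The 0 for Trex-/- STING-/- against Trex-/- STING+/- became 1 without the low Hnrnpa2b1 arrays, and the 0 for Trex+/+ STING-/- against Trex+/+ STING+/+ became 1 with array weights. Fits with fewer arrays have a less certain error by construction; otherwise the cause was not tested.

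The sign turned for Ctsa with the probe of largest variance (-0.55 for Trex-/- against Trex+/+ on STING+/+ and 0.60 for Trex-/- STING-/- against Trex-/- STING+/+), for Ctsd on STING+/+ without the low Hnrnpa2b1 arrays (-0.05) and from -0.05 to 0.43 without 1 array, and for Ctsk in Trex-/- STING-/- against Trex-/- STING+/+, from -1.10 to 0.11 without 1 array. Over all features, the 3378 calls on STING+/+ became 1998 with array weights and 1418 in fits of the compared arrays alone, and the 3727 for Trex-/- STING-/- against Trex-/- STING+/+ became 1925 and 1288. The 10 alternatives other than leaving out 1 array also moved the calls in the lists on STING+/+. For the 4 inhibitors they became 1 to 5 and for the 8 other lysosomal enzymes 3 to 9. The 4 calls of membrane and proton pump genes became 1 to 5, and the 15 of macrophage markers 11 to 16. The 6 of T and NK cell markers became 3 to 7, and the 2 of neutrophil markers 0 to 2. More genes are tested with no filter.

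Calls in the partner and marker lists on STING+/+ moved without 1 array as follows: 4 became 3 to 5 for inhibitors, 3 became 0 to 4 for granule proteases and 0 to 5 for sorting genes, 8 became 4 to 10 for other lysosomal enzymes, 15 became 11 to 15 for macrophage markers and 4 became 0 to 4 for fibroblast markers, with 6 throughout for T and NK cell markers.

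With 2 arrays a genotype, a fit without 1 assumes that the lone array varies like the other groups. Ctsl did not pass the strict filter and has no value there. The slide as a block was not run, since the column headers name none. No paired analysis was possible because the labels number the samples 1 to 16 without repeats, so the replicate numbers only name arrays. Ctsl and 3 of the 5 Ctsa probes lie near background, where signal limits what can be seen. The Ctsd probe, though detected on all 12 arrays, was also dim, with deposited signals of 108.3 to 214.3.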
